A study of Schizocosa ocreata with 10 samples.

Results

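The brains of male wolf spiders, Schizocosa ocreata, were compared before and after the last molt, which turns a subadult into an adult. The comparison rests on the 3 libraries labelled immature male (numbers 1, 2 and 3) and the 2 labelled mature male (numbers 2 and 3). These were chosen by their labels alone and are 5 of the 10 libraries of the series, the other 5 being 2 immature and 3 mature females. Each library holds polyadenylated RNA from the brain of 1 wild-collected spider from Lancaster County, Nebraska, sequenced in paired ends on an Illumina instrument. Immature males were subadults dissected 3 to 4 days after collection. They were not matched for age, and how long each had before its next molt was unknown. Mature males were dissected when 24 hours had passed since their molt to maturity, and no group carried a treatment or an altered gene. The dissected tissue may include esophagus. The question asked here is which functions were higher or lower in males at maturity, across the annotated genes.

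Arthropods can grow only by shedding their cuticle, and each molt is started by a pulse of ecdysteroid hormone. In insects the pulse acts through the receptor pair EcR and usp and switches on a short-lived series of nuclear receptors, while enzymes loosen the old cuticle and the epidermis lays down a new one. In wolf spiders the last molt also opens adult life, in which males search for females and court them with leg and body signals.

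Between 5014354 and 9960884 reads per male library were assigned to genes (3481348 to 11789754 over the series). Levels are given as CPM, read counts scaled to a common library size with TMM factors, so they compare libraries and not genes of different length. Of 25922 genes with counts, 24930 were tested and 13348 of these had a match to a named protein. A gene carries the name of its closest match in a protein database, often one from Drosophila, and the stated roles come from the species of the match. The coding sequences of 8675 genes overlap another on the same assembled contig, so their reads could be shared. A gene was called at an adjusted p under 0.05 in edgeR's quasi-likelihood test with Benjamini-Hochberg adjustment, fitted to all 10 libraries. Differences are log2 values, mature minus immature, and the SE is the absolute difference divided by the square root of the test's F. With 1 spider per library, the p-values measure the spread between these spiders, and an exact permutation test of 2 against 3 libraries cannot go below a two-sided p of 0.2. In whole tissue, fewer cells of a type and less RNA per cell cannot be told apart.

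Immature male 2 stood apart from the other immature males. Across genes, its log2 CPM correlated with mature males 2 and 3 at a Pearson r of 0.911 and 0.921, but with immature males 1 and 3 at 0.839 and 0.829. Immature males 1 and 3 correlated at 0.914, and the mature males at 0.917. These correlations are across genes within pairs of libraries and describe those libraries only. For 63.2% of the tested genes the level of immature male 2 lay nearer to the mature mean than to the mean of immature males 1 and 3. Results that change without this library are therefore given both ways. It was singled out by its values, so calls made without it describe the remaining libraries and carry no independent weight. Mature male 2 also stood apart. Of the 88 genes called higher by the likelihood ratio test of edgeR, 35 were at least 10 times higher in mature male 2 than in mature male 3 and 2 the other way round. Leaving it out turned the sign of the median in 13 of 46 gene lists, all genes counted as 1. Among its high genes were matches to viruses and to RNA interference proteins, whose values are given in the closing section.

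**Figure D1:**
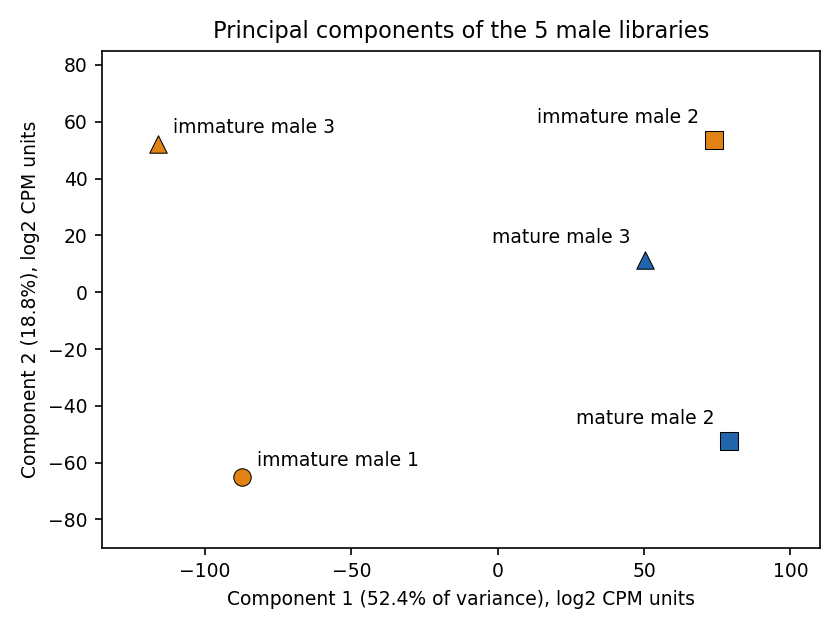
First and second principal components of log2 CPM for the 5 male libraries, with the share of variance on each axis. Immature male 2 lies at 73.8 on the first component (52.4% of the variance), beside mature males 2 and 3 at 79.1 and 50.3, whereas immature males 1 and 3 lie at -87.2 and -116.0.

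The tissue label was checked against marker lists. Matches to synaptic vesicle proteins held between 0.439% and 0.626% of the counts of a male library, so neuronal RNA was present in each. Sarcomere proteins, the contractile proteins of muscle, held between 9.94% and 14.1%. That muscle share was 11.4%, 14.1% and 9.94% in immature males 1 to 3 and 11.4% and 12.8% in mature males 2 and 3, so the groups overlapped. Glial protein matches held between 0.140% and 0.176%.

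Few genes passed the test. Of the 24930 genes, 2 were called higher in mature males (0.00802%) and 0 lower, while 1856 (7.44%) had an unadjusted p under 0.05, 692 higher (2.78%) and 1164 lower (4.67%). The likelihood ratio test of edgeR, which the study used, called 129 genes (0.517%), 88 higher (0.353%) and 41 lower (0.164%). DESeq2 called 255 (1.02%), 114 higher (0.457%) and 141 lower (0.566%), and 119 genes were called by both. Of the 88 genes that the likelihood ratio test called higher, 71 had their largest value in mature male 2 and 15 overlapped between the groups. Sequences from a mature male assembly made up 31 of these 88, against 6.73% of all tested genes. Among the 41 called lower, 21 had sequence from an immature male assembly, against 7.94% of all tested genes. Whether the source assembly affected the counts was not tested. Leaving out immature male 2 gave 112 calls by the quasi-likelihood test (0.449%), of which 14 were higher (0.0562%) and 98 lower (0.393%). Immature male 2 lay nearer to the mature males in 98 of these 98 lower genes and in 11 of the 14 higher ones, a count that the choice of genes itself favors. Leaving out mature male 3 gave 48 calls (0.193%), 47 higher (0.189%) and 1 lower (0.00401%), and 33 of the 48 were at least 10 times higher in mature male 2 than in mature male 3. Leaving out immature male 1 or immature male 3 gave 0 calls in the quasi-likelihood test. Libraries of the 2 groups did not overlap in 11.3% of all tested genes in the higher direction and in 11.2% in the lower, which is the background for the counts of non-overlapping genes given from here on. The median difference over all tested genes was -0.01.

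Both called genes match serine proteases of the trypsin fold, a family that includes digestive enzymes, clotting and immune proteases, venom components and enzymes of molting fluid. Gene025438 matches chymotrypsin-like protease CTRL-1 (32.6% identity), and its coding sequence spans bases 3 to 455 on the minus strand of a transcript assembled from mature male 2. It was at 0, 0 and 0.117 CPM in immature males 1 to 3 and at 52.9 and 80.6 CPM in mature males 2 and 3. Both mature libraries were far above every immature one, where a single read was found over the group against 1388 in the mature males. That is a ratio of 1303 with a 95% interval for counting error alone of 234 to 51522 (exact binomial). The fitted difference was 10.02 (SE 0.75, adjusted p = 0.00673, edgeR's quasi-likelihood test). Gene013935 matches a chymotrypsin-like elastase (33.2% identity) and spans bases 125 to 955 on the minus strand of its consensus contig. Its levels were 0.394, 0.167 and 0.35 CPM in immature males and 150 and 276 CPM in mature males. The groups were again far apart, and the difference was 9.38 (SE 0.79, adjusted p = 0.00905, quasi-likelihood test). Both calls held without immature male 2 (adjusted p = 0.0055 and 0.00939, in the order the genes were given). Both were lost without immature male 1 (0.0742 and 0.123), without immature male 3 (0.126 and 0.13), with male libraries only (0.0968 and 0.0568) and with a replicate block (0.0813 for each), while the differences stayed between 8.72 and 12.17 over the alternatives.

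A further group of protease genes had the same distribution without passing the test. Gene013936, matching a venom protease, was at 0, 0.167 and 0 CPM in immature males and at 77.8 and 180 CPM in mature males, a difference of 10.93 (SE 1.21, adjusted p = 0.0626). It was called by the likelihood ratio test (adjusted p = 1.02e-13) and by the quasi-likelihood test without immature male 2 (adjusted p = 0.0282). Its coding sequence begins at base 125 of its contig, as that of Gene013935 does, and whether these genes share sequence was not tested. Gene025662, another chymotrypsin-like match, lay between 0.117 and 0.197 CPM in immature males and at 66.4 and 226 CPM in mature males (adjusted p = 0.488). Gene025437, matching persephone, an activator of the Toll immune pathway in Drosophila, was at 1.38, 1.5 and 0.467 CPM in immature males and at 53.9 and 53.8 CPM in mature males. The quasi-likelihood test gave adjusted p = 0.544 and the likelihood ratio test called it (adjusted p = 0.00391). Gene014889, matching the Drosophila aminopeptidase CG8773, had no read in any immature male and 3.91 and 26 CPM in mature males, at least 95.8-fold higher against a floor of 3 reads over the group. Females were near 0 for these genes at both stages, except for Gene025662 at 22.8 CPM in immature female 2.

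Other trypsin-fold genes were lower in mature males once immature male 2 was set aside. Gene023408, matching the transmembrane protease TMPRSS2, was at 47, 0.501 and 44.5 CPM in immature males 1 to 3 and at 0.186 and 0.295 CPM in mature males. Gene023609, matching the horseshoe crab proclotting enzyme, was at 45.7, 0.167 and 55 CPM against 0.651 and 0.689 CPM. In both genes immature male 2 sat with the mature males. The differences were -6.92 (SE 1.86, adjusted p = 0.603) and -5.62 (SE 1.79, adjusted p = 0.603) in the 5 males, and both genes were called without immature male 2 (adjusted p = 0.0266 and 0.0233, quasi-likelihood test). Of the 61 trypsin-fold genes tested, 2 were called higher and 0 lower (0.00802% and 0% over all tested genes). In this family 11 genes did not overlap in the higher direction and 5 in the lower, and the median difference was -0.14. The higher and the lower members thus stood side by side in a family without a common direction. The summed level of the family was 0.104%, 0.0747% and 0.101% of the counts in immature males and 0.163% and 0.195% in mature males.

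The other digestive hydrolases (astacins, carboxypeptidases, cathepsins, lipases and amylases) had 0 of 62 genes called, with 10 non-overlapping higher and 4 lower. Their summed share was 0.235%, 0.318% and 0.201% in immature males and 0.319% and 0.257% in mature males, so the groups overlapped. Gene017030, matching cathepsin B, a protease of lysosomes, was close in all immature males at 32.7, 32.4 and 31.4 CPM and lay at 62.1 and 53.6 CPM in mature males. The difference was 0.85 (SE 0.22, adjusted p = 0.603). Gene025789, an astacin-type metalloprotease, was at 6.5, 7.01 and 4.43 CPM against 34.7 and 80 CPM, a difference of 3.26 (SE 0.93, adjusted p = 0.603). Venom protein matches, the list that Gene013936 also belongs to, held 0.0499%, 0.0847% and 0.069% of the counts in immature males and 0.0905% and 0.13% in mature males. Whether venom gland or gut tissue took part in the protease levels was not tested.

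**Figure D2:**
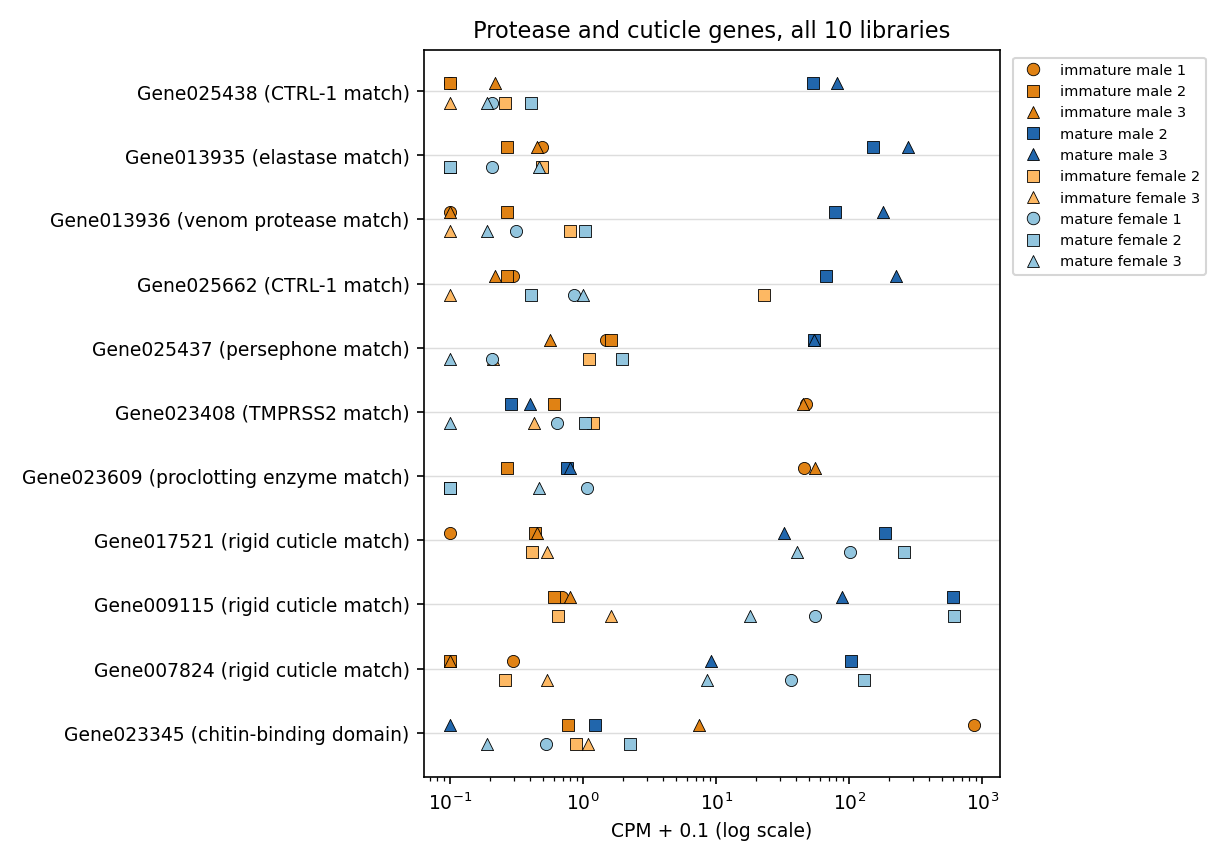
CPM plus 0.1 on a log axis for 11 protease and cuticle genes in all 10 libraries, 1 point per library. For Gene025438 the mature males sit at 52.9 and 80.6 CPM and the immature males between 0 and 0.117 CPM, whereas for Gene017521 the mature females (40.2 to 258 CPM) are as high as the mature males.

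Structural proteins of the cuticle had the most calls of any domain among the genes that the likelihood ratio test called higher. Among those 88 genes, 9 carried the chitin-binding domain Chitin_bind_4 of arthropod cuticle, out of 86 tested genes with it. The trypsin domain was carried by 5, out of 61 tested genes with it. Over all tested genes the likelihood ratio test called 0.353% higher. Gene017521, matching an adult-specific rigid cuticular protein (68.4% identity), was at 0, 0.334 and 0.35 CPM in immature males and at 187 and 32.5 CPM in mature males. The difference was 8.70 (SE 1.17, adjusted p = 0.231), and the likelihood ratio test called it (adjusted p = 1.43e-09). Gene009115, of the same protein class, was at 0.591, 0.501 and 0.7 CPM against 599 and 88.4 CPM. Gene007824 was at 0.197, 0 and 0 CPM against 104 and 8.95 CPM. In each of these genes mature male 2 was several times above mature male 3, and both were above all immature males.

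The list as a whole was divided. Among its 86 tested genes the likelihood ratio test called 9 higher and 1 lower (0.353% and 0.164% over all tested genes). DESeq2 called 12 higher and 5 lower (0.457% and 0.566%). Without immature male 2, the quasi-likelihood test called 1 higher and 3 lower (0.0562% and 0.393%). Of the 86 cuticle genes, 22 did not overlap in the higher direction and 3 in the lower, but as many as 21 had an unadjusted p under 0.05 in the lower direction against 22 in the higher. The median difference was 0.50, with quartiles at -4.10 and 3.22. Leaving out immature male 2 moved it to 1.28, and leaving out mature male 2 to -0.88. Gene023345 was the reverse case, at 864 CPM in immature male 1, 0.668 and 7.35 CPM in immature males 2 and 3, and 1.12 and 0 CPM in mature males. Cuticle genes held 0.828%, 0.233% and 0.0528% of the counts in immature males and 0.878% and 0.219% in mature males, so a single spider set the highest share in each group. Enzymes and binding proteins of chitin, the polymer of the cuticle, had 3 of 69 genes non-overlapping higher and 12 lower, with a median of -0.74 (-1.06 to 0.47 in the 6 pairs of libraries).

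Among matrix genes, 3 with roles in connective tissue were higher in both mature males. Gene007772, matching lysyl oxidase Loxl2, which crosslinks collagen, was at 98.4, 50.1 and 51.2 CPM in immature males and at 240 and 318 CPM in mature males. The lowest mature library was more than 2 times the highest immature one, and the difference was 2.07 (SE 0.37, adjusted p = 0.488, likelihood ratio test adjusted p = 0.00306). Gene009700, matching the basement membrane collagen Col4a1, was at 74.4, 76.5 and 56.7 CPM against 171 and 169 CPM, a difference of 1.30 (SE 0.27, adjusted p = 0.603). Gene014493, matching the matrix adhesion protein midline fasciclin (mfas), was at 26.2, 67.6 and 25.6 CPM against 143 and 96.3 CPM and was called without immature male 2 (adjusted p = 0.0328). In females the differences were 3.67 for Gene007772, 1.89 for Gene009700 and 0.41 for Gene014493, and the last overlapped between the female groups. Over the 31 collagen, laminin and lysyl oxidase genes, 7 did not overlap in the higher direction and 2 in the lower, and the median was 0.01. Their summed share was lowest in immature male 2 (0.427%), at 1.44% and 1.11% in immature males 1 and 3 and at 2.03% and 1.61% in mature males.

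Several genes of the apical matrix, the layer to which epidermis anchors its cuticle, were far higher in immature males 1 and 3 than in the mature males. Gene005288, matching dumpy (dpy), a giant filament protein of that layer in Drosophila, was at 1559, 2 and 2143 CPM in immature males 1 to 3 and at 6.98 and 2.75 CPM in mature males. Immature male 2 was below both mature males. The difference was -7.98 (SE 2.37, adjusted p = 0.603). The likelihood ratio test called it (adjusted p = 0.0422), and so did the quasi-likelihood test without immature male 2 (adjusted p = 0.0235). Gene023377, matching dusky-like (dyl), a zona pellucida protein that shapes cuticle, was at 26.6, 2.17 and 396 CPM against 0.93 and 0.59 CPM. Gene001529, matching the haem peroxidase curly su (cysu), was at 213, 5.01 and 52.5 CPM against 1.95 and 3.05 CPM, and its call without immature male 2 had adjusted p = 0.0233. The 28 zona pellucida genes had 5 non-overlapping higher and 1 lower, and the 22 haem peroxidases 0 and 2. These counts leave out dpy, whose groups overlapped through immature male 2. Without that library, the quasi-likelihood test called 0 higher and 2 lower in each list (0.0562% and 0.393% over all tested genes). With all libraries, DESeq2 called 4 zona pellucida genes and 2 haem peroxidases lower and 0 higher (0.566% and 0.457% over all tested genes).

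The ecdysone list followed the same split among the immature males. Gene001811, matching hormone receptor 4 (Hr4), which times the response to the pulse in Drosophila, was at 503, 1.34 and 667 CPM in immature males 1 to 3 and at 5.12 and 1.97 CPM in mature males. A second Hr4 match, Gene001472, was at 154, 15.5 and 285 CPM against 4.47 and 4.13 CPM. Gene022715, matching hormone receptor 3 (Hr3), which acts in the same step, was at 142, 1.84 and 138 CPM against 3.07 and 2.46 CPM. In all of these immature males 1 and 3 were at least 30 times above the mature males. Immature male 2 was near or below the mature males for Gene001811 and Gene022715, while for Gene001472 it lay above both of them and the groups did not overlap. The differences over the 5 males were -6.78 (SE 2.45), -5.14 (SE 1.56) and -5.08 (SE 1.64), each with adjusted p = 0.603 in the quasi-likelihood test. Without immature male 2 they were -7.36, -5.67 and -5.66, and none was called (adjusted p = 0.128, 0.125 and 0.0623). The other Hr3 match, Gene001858, had lower levels of 38.4, 8.68 and 39.9 CPM against 8.19 and 9.15 CPM and was called without immature male 2 (-2.18, SE 0.27, adjusted p = 0.0199).

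Targets and partners of the receptors varied more. Gene005999, matching Cyp18a1, the enzyme that inactivates ecdysteroids in Drosophila, was at 32.3, 0.501 and 20.5 CPM in immature males and at 0.465 and 0 CPM in mature males. The groups overlapped at no point, though immature male 2 and mature male 2 were close, and the difference was -6.14 (SE 1.61, adjusted p = 0.603). The likelihood ratio test called it (adjusted p = 0.0481), as did the quasi-likelihood test without immature male 2 (adjusted p = 0.0233). Gene001442, matching the ecdysone-induced transporter E23, was at 65.2, 2 and 115 CPM against 2.14 and 0.787 CPM. Gene005334, matching the ecdysone-induced calcium-binding protein Eip63F-1, was at 369, 97 and 521 CPM against 64.8 and 72.9 CPM and was called without immature male 2 (adjusted p = 0.045). Gene005488, matching the early receptor E75 (Eip75B), was at 185, 86.5 and 221 CPM against 46.6 and 64.1 CPM. Here immature male 2 stayed above both mature males.

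The matches to EcR, usp and ftz-f1 had no common direction. Gene017234, matching the ecdysone receptor EcR, was at 25.8, 55.3 and 30.5 CPM in immature males and at 50.2 and 50.6 CPM in mature males, and the groups overlapped. Gene018956, matching its partner usp, was at 8.66, 18.7 and 19.6 CPM against 28.2 and 28.1 CPM, whereas a second usp match, Gene007749, was at 14.4, 7.85 and 9.68 CPM against 6.33 and 7.77 CPM. Gene007559, matching ftz-f1, a receptor that follows the pulse in Drosophila, was at 13, 29.7 and 4.2 CPM against 48 and 31.9 CPM. None of these was called with or without immature male 2. The pair of E74 matches (Eip74EF) also ran in opposite directions, with Gene005750 at 14.4, 8.18 and 27.2 CPM against 8.1 and 6.2 CPM and Gene016899 at 8.07, 13 and 14.7 CPM against 17.7 and 32.1 CPM.

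The other members of the list overlapped between the groups. Gene009104, an E78 match (Eip78C), was at 191, 79.5 and 365 CPM in immature males and at 96.2 and 98.2 CPM in mature males, so immature male 2 was again with the mature spiders. Of the remaining E78 matches, Gene007139 was steady, between 13.1 and 14.5 CPM over the 5 males. Gene008954 was at 26, 13.5 and 20.8 CPM against 13.8 and 14.3 CPM, with immature male 2 just below the mature males. Gene006242, matching E93 (Eip93F), which directs the change to the adult in insects, was at 17.7, 19.9 and 28 CPM against 23 and 22.7 CPM, with no common direction. A second ftz-f1 match, Gene024685, was at 0.787, 2.17 and 0.933 CPM against 5.4 and 2.16 CPM. Orphan receptors of the same family stayed within a narrow band, with Hr78 (Gene000066) between 31.5 and 53.8 CPM, Hr39 (Gene009352) between 24.9 and 39.1 CPM and Hr96 (Gene008208) between 13.8 and 26.7 CPM. Gene001184, matching Hr38, a receptor induced by neuronal activity in insects, was at 57.5, 14.5 and 19.1 CPM against 17.3 and 24 CPM, and the 2 weaker Hr96 matches, Gene006770 and Gene024602, did not exceed 1.67 and 4.09 CPM.

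Of the 22 ecdysone receptors and early genes, 3 did not overlap in the higher direction and 4 in the lower, and the median was -0.07. Their summed share was 0.151%, 0.0517% and 0.197% in immature males and 0.0537% and 0.0536% in mature males. The 2 immature females split in a like way, with 0.182% in immature female 2 and 0.0633% in immature female 3. Hormone synthesis genes had 0 of 16 genes non-overlapping higher and 2 lower. Ecdysis neuropeptides and their receptors, which drive the shedding of the old cuticle in insects, had 1 of 11 in each direction and a median of -0.02.

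**Figure D3:**
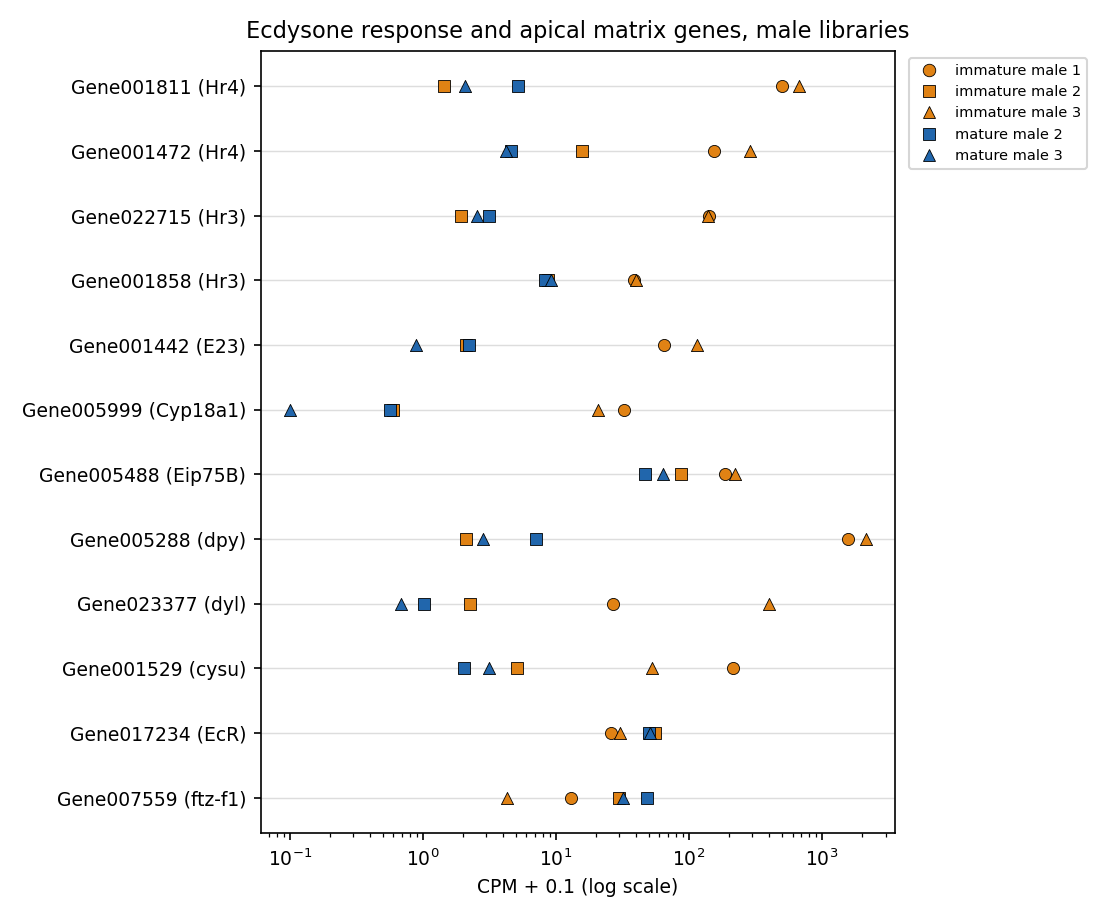
CPM on a log axis (plus 0.1) for 12 genes of the ecdysone response and of the cuticle and its matrix in the 5 male libraries. Immature males 1 and 3 lie far above the mature males for Hr4 (503 and 667 against 5.12 and 1.97 CPM), and immature male 2 lies at 1.34 CPM.

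Several lists of protein synthesis genes had negative medians in males, with many small differences and few calls. Of 80 ribosome biogenesis genes, 47 did not overlap in the lower direction and 0 in the higher, against the background of 11.2% and 11.3%. Their median difference was -0.74, between -1.07 and -0.26 in the 6 pairs of 1 immature and 1 mature male, so every pair had the same sign. Gene006375, matching MPP10, a protein of the U3 particle that processes ribosomal RNA, was at 50.6, 47.9 and 43.8 CPM in immature males and at 12.5 and 17.3 CPM in mature males. All 3 immature males were alike here, immature male 2 included. The difference was -1.67 (SE 0.27, adjusted p = 0.461), and the likelihood ratio test called it (adjusted p = 0.00702). Gene005127, a second MPP10 match, was at 34.6, 28.1 and 26 CPM against 8 and 12.1 CPM and was called by the same test (adjusted p = 0.0328). Whether these MPP10 matches are separate genes was not tested. Gene010282, matching the zinc finger protein Zpr1, was at 30.9, 27.6 and 30.3 CPM against 11 and 14.3 CPM, a difference of -1.23 (SE 0.28, adjusted p = 0.603). Gene004514, matching the exoribonuclease Rat1, which trims RNA in the nucleus, was at 119, 131 and 146 CPM against 66.4 and 71.5 CPM.

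Cytosolic ribosomal proteins, the protein subunits of the ribosome, had the lowest median of these lists at -1.03. Of 74 genes, 33 did not overlap in the lower direction and 0 in the higher, 51 had an unadjusted p under 0.05 and 0 were called by the quasi-likelihood or the likelihood ratio test. Their summed share was 2.31%, 1.07% and 2.58% in immature males and 1.18% and 0.9% in mature males. Immature male 2 thus lay between the mature males, and the 6 pairs of libraries ranged from -1.61 to 0.03. Gene016797, matching ribosomal protein SA (sta), was at 507, 260 and 564 CPM against 232 and 149 CPM, a difference of -1.22 (SE 0.37, adjusted p = 0.603). Gene020759, matching RpL37a, was at 175, 76.3 and 193 CPM against 73.1 and 51.2 CPM. In females the median of the list was -0.70 and 42 of the 74 genes did not overlap in the lower direction.

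The rest of the translation machinery had smaller negative medians, of about the same size in each list. Mitochondrial ribosomal proteins had 33 of 74 genes non-overlapping lower and 0 higher, with a median of -0.51. Gene012822, matching mRpL49, was at 18.5, 17.5 and 28.5 CPM in immature males and at 9.12 and 9.25 CPM in mature males. Translation factors had 23 of 48 lower and 0 higher (median -0.53), and Gene020689, matching the initiation factor subunit eIF3m, was at 69.5, 57.9 and 97 CPM against 36.3 and 39.1 CPM. The enzymes that load amino acids onto transfer RNA had 15 of 51 lower and 1 higher (median -0.53), and their 6 pairs of libraries ranged from -0.85 to 0.11. Gene012945, matching the asparagine enzyme AsnRS, was at 171, 152 and 174 CPM against 86.2 and 91 CPM, a difference of -0.90 (SE 0.24, adjusted p = 0.603). In all 3 of these genes the lowest immature male was above the highest mature one. The lists of this and the preceding 2 paragraphs, apart from the cytosolic ribosomal proteins, were written after values had been seen, so their counts describe the libraries and carry no independent weight.

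**Figure D4:**
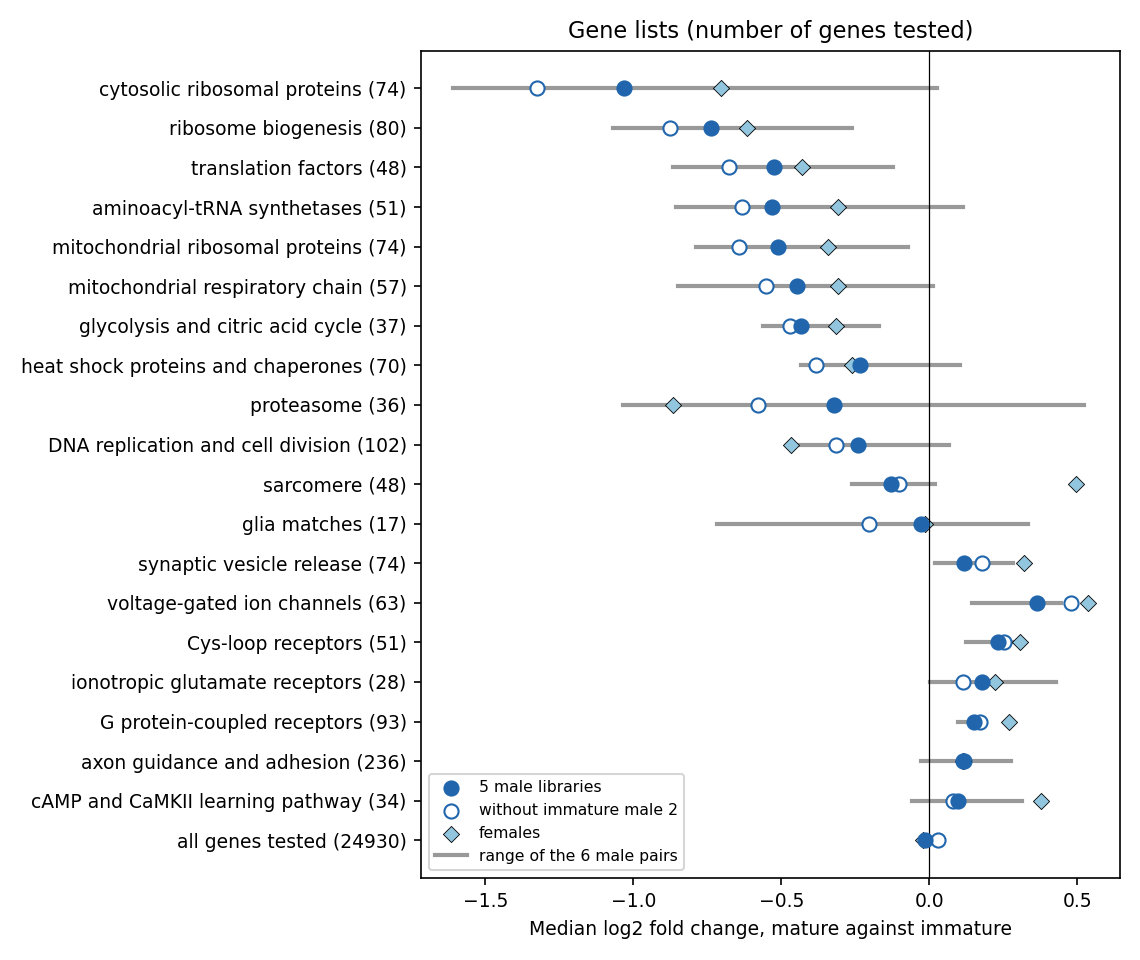
Median log2 difference, mature minus immature, for 20 gene lists, with filled points for the 5 males, open points for males without immature male 2, diamonds for females and bars for the range over the 6 pairs of male libraries. Cytosolic ribosomal proteins lie at -1.03 in males and -0.70 in females, and voltage-gated ion channels at 0.36 and 0.54.

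Energy metabolism and protein folding had smaller negative medians. The mitochondrial respiratory chain had 24 of 57 genes non-overlapping lower and 0 higher, with a median of -0.45 (-0.85 to 0.01 in the 6 pairs of libraries). Gene003823, matching the complex I subunit ND-13A, was at 33.5, 27.4 and 36.6 CPM in immature males and at 20.3 and 22.5 CPM in mature males, with means of 32.5 ± 4.7 (SD, n = 3) and 21.4 ± 1.59 (SD, n = 2) and a difference of -0.60 (SE 0.23, adjusted p = 0.609). Glycolysis and the citric acid cycle had 15 of 37 lower and 3 higher (median -0.43, pairs -0.56 to -0.17). Gene001836, matching the NADP-dependent mitochondrial isocitrate dehydrogenase (Idh), was at 578, 320 and 560 CPM against 251 and 206 CPM. Gene018070, matching hexokinase A (Hex-A), the first enzyme of glycolysis, was the reverse at 28.3, 38.4 and 15.6 CPM against 105 and 124 CPM. Chaperones had 14 of 70 lower and 3 higher (median -0.24, pairs -0.43 to 0.10), with the folding complex subunit CCT5 (Gene017730) at 371, 197 and 394 CPM against 157 and 152 CPM. The proteasome had no common direction, with 2 of 36 genes non-overlapping lower, below the background, and 0 higher. Its median of -0.32 became -0.06 without immature male 3 or without mature male 3, and the pairs ran from -1.03 to 0.52. DNA replication and cell division genes had 20 of 102 lower and 5 higher (median -0.24, pairs -0.48 to 0.07).

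A few genes of lipid and carbohydrate handling were higher in mature males when immature male 2 was left out. Gene017993, matching an elongase of very long chain fatty acids, was at 3.94, 61 and 8.63 CPM in immature males and at 154 and 144 CPM in mature males (4.55 without immature male 2, SE 0.73, adjusted p = 0.0468). Gene019228, matching the glycosidase tobi, which follows diet in Drosophila, was at 6.1, 16.9 and 7.12 CPM against 25.7 and 26.3 CPM (1.97, SE 0.26, adjusted p = 0.0235). Gene012961, matching the mitochondrial carrier Ucp4A, was at 78.5, 298 and 79.7 CPM against 268 and 399 CPM (2.07, SE 0.33, adjusted p = 0.045). Immature male 2 was above the other immature males in each, and inside the mature range for Ucp4A. Gene014444, a CRAL-TRIO protein, a family that carries small lipids, was at 0, 1.17 and 0.35 CPM against 12.9 and 15.6 CPM and was called by the likelihood ratio test (adjusted p = 0.0249). Of the 54 tested CRAL-TRIO genes 10 did not overlap in the higher direction and 4 in the lower.

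**Figure D5:**
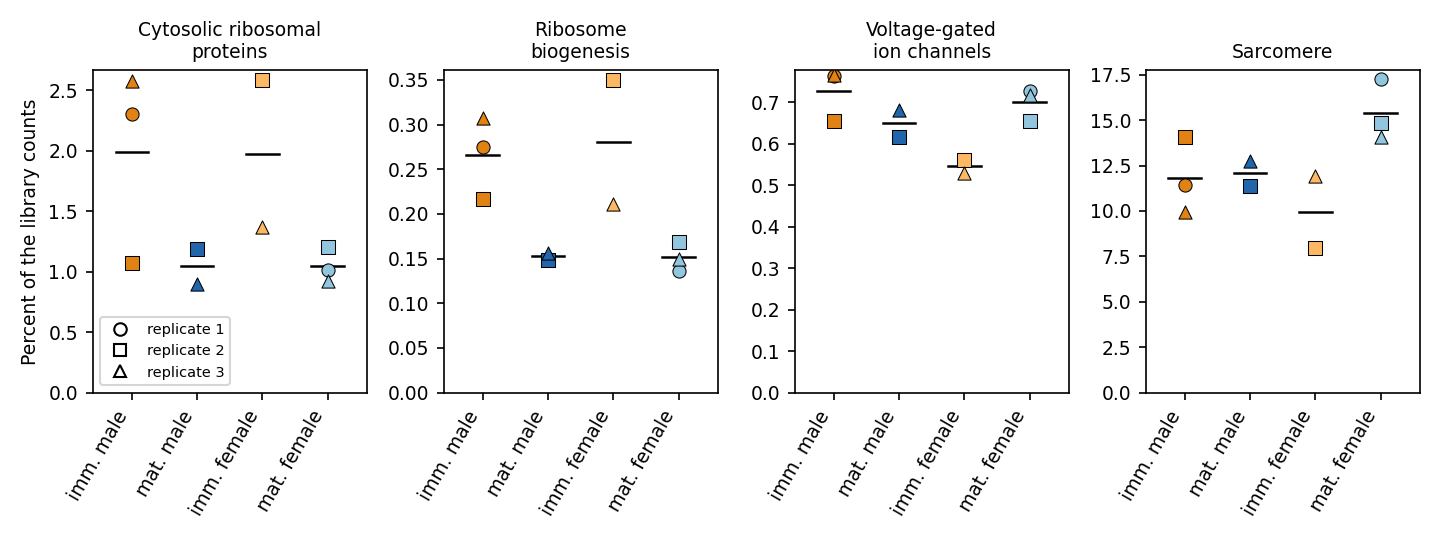
Summed share of each library's counts, in percent, for 4 gene lists in the 4 groups of sex and stage, with 1 point per library and a line at the group mean. Cytosolic ribosomal proteins held 2.31%, 1.07% and 2.58% in immature males and 1.18% and 0.9% in mature males.

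Neuronal lists went slightly the other way, member by member. Voltage-gated ion channels, which carry the action potential, had 26 of 63 genes non-overlapping higher and 3 lower, with 0 called and a median of 0.36 (0.14 to 0.44 in the 6 pairs of libraries). Their summed share of counts did not follow, at 0.762%, 0.656% and 0.765% in immature males and 0.616% and 0.682% in mature males. Gene006987, matching cacophony (cac), the presynaptic calcium channel of Drosophila, was at 83.3, 106 and 68.3 CPM against 143 and 143 CPM, a difference of 0.74 (SE 0.25, adjusted p = 0.603). Gene007091, matching the calcium channel Ca-alpha1D, which works in muscle and neurons, was at 8.86, 6.68 and 8.28 CPM against 13.1 and 13.3 CPM. Both lay above every immature male in both mature males. The share of sarcomere genes overlapped between the groups, as given above, and their median was -0.13 with 1 of 48 genes non-overlapping higher and 9 lower.

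Receptors had smaller medians. Ionotropic glutamate receptors had 7 of 28 genes non-overlapping higher and 0 lower (median 0.18), among them the NMDA receptor matches Gene012433, at 0.591, 1.17 and 0.933 CPM against 2.98 and 2.56 CPM, and Gene017382, at 39.2, 37.1 and 28.1 CPM against 56.2 and 62.5 CPM. Cys-loop receptors, the channels opened by acetylcholine, GABA and related transmitters, had 8 of 51 higher and 3 lower (median 0.23). Gene012357, matching the histamine-gated channel HisCl1, was the reverse at 30.5, 12.9 and 26.1 CPM against 5.68 and 7.48 CPM, a difference of -1.82 (SE 0.63, adjusted p = 0.603). Gene000163, matching the acetylcholine receptor subunit nAChRalpha2, overlapped at 66.7, 225 and 258 CPM against 81 and 52 CPM. G protein-coupled receptors had 15 of 93 higher and 2 lower (median 0.15). Gene013313, matching the receptor of the neuropeptide RYamide, was at 4.33, 11 and 3.85 CPM against 28.8 and 23.3 CPM, a difference of 2.03 (SE 0.55, adjusted p = 0.603). Gene011272, matching the dopamine receptor Dop1R2, was at 2.36, 3.84 and 2.8 CPM against 5.12 and 6.3 CPM.

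Synaptic, guidance and signaling genes had medians close to that of all genes. Synaptic vesicle genes had 15 of 74 non-overlapping higher and 0 lower (median 0.12), with the vesicle protein synaptotagmin 12 (Gene010879) at 11, 13.4 and 13.3 CPM against 18.9 and 22.7 CPM. Axon guidance and adhesion genes had 47 of 236 higher and 12 lower. Their median was 0.11 in the 5 males, -0.01 without mature male 2 and 0.22 without mature male 3. Gene011815, a roundabout 1 match (robo1), was at 13.4, 24.4 and 8.63 CPM against 36.3 and 35.5 CPM. In these genes, too, the groups did not overlap while the test gave no call. The cAMP and CaMKII genes studied in learning had 5 of 34 higher and 1 lower, with a median of 0.10 that became -0.09 without mature male 2. Gene012886, matching orb2, a regulator of translation needed for lasting memory in Drosophila, was at 37, 52.1 and 38.4 CPM against 70.5 and 65.5 CPM. Glial matches had 0 of 17 higher and 2 lower, including the glutamate transporter Eaat2 (Gene005755) at 45.1, 21.4 and 37.3 CPM against 12.3 and 17.9 CPM.

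Genes from retrotransposons and transposases had 104 of 407 non-overlapping higher and 12 lower. Their median was 0.34 in the 5 males, 0.12 without immature male 3 and 0.81 in females. Immature male 3 had the lowest summed share of this list, 0.568%, against 1.08% in both other immature males and 1.33% and 1.22% in mature males. The 13 matches to sex determination and dosage compensation genes had 2 higher and 0 lower. Gene018388, matching the doublesex-related factor dmrt99B, was at 3.94, 2 and 3.27 CPM against 7.07 and 6.3 CPM, a difference of 1.12 (SE 0.46, adjusted p = 0.638). Among 37 homeobox factors 4 were non-overlapping higher and 3 lower, and Gene000719, matching Sex combs reduced (Scr), which specifies a head and thorax segment in insects, was at 1.77, 1.5 and 0.817 CPM against 3.44 and 3.25 CPM.

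Among the genes with a match that were lower in mature males, those with the smallest p included proteins at the cell surface. Gene003328, matching the leucine-rich repeat protein Lrt, was at 16.5, 11.9 and 13.7 CPM in immature males and at 4.19 and 4.62 CPM in mature males, a difference of -1.67 (SE 0.40, adjusted p = 0.603). In females the same gene ran the other way, from 3.9 and 7.21 CPM in immature to 15.9, 8.91 and 9.38 CPM in mature libraries. Gene005668, matching the receptor tyrosine kinase Cad96Ca, was at 3.35, 3.67 and 8.98 CPM against 0.93 and 0.984 CPM and was called by the likelihood ratio test (adjusted p = 0.0335). In both genes no immature male reached the mature range. Gene016240, whose best matches are papilin (Ppn) and a Kunitz-type spider toxin, was at 9.06, 3.67 and 10.5 CPM against 1.95 and 1.08 CPM (likelihood ratio test adjusted p = 0.0494). Gene019484, matching the endosome protein l(2)gd1, was at 69.5, 86.5 and 94.9 CPM against 42.2 and 46.4 CPM. Gene005563, matching a desumoylating isopeptidase, an enzyme that removes the small modifier SUMO, was at 1039, 132 and 876 CPM against 114 and 73.7 CPM. It had the lowest adjusted p of the lower genes named here without immature male 2 (0.011, difference -3.36, SE 0.36).

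The remaining lists had 0 calls in the quasi-likelihood test. Serpins, which inhibit serine proteases, had 2 of 23 genes non-overlapping higher and 0 lower. Cytochrome P450 genes had 4 of 73 in each direction, opsins and phototransduction genes 2 of 29 higher and 1 lower, and the circadian clock 1 of 21 higher and 2 lower. Innate immunity genes had 1 of 35 higher and 5 lower, blood cell and clotting matches 1 of 46 higher and 6 lower, and solute transporters 18 of 144 higher and 14 lower. Haemocyanins, the oxygen carriers of spider blood, held 0.0176%, 0.079% and 0.0629% of the counts in immature males and 0.306% and 0.0121% in mature males 2 and 3, so the mature spiders were at both ends of the range. Whether blood in the samples took part in any of these levels was not tested.

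In females, the quasi-likelihood test called 0 genes between the stages, while 2607 had an unadjusted p under 0.05, and the likelihood ratio test and DESeq2 called 294 and 376. The difference between the sexes in the change with stage was tested as an interaction. It gave 0 calls in the quasi-likelihood test (798 genes, 3.2%, with an unadjusted p under 0.05), 14 in the likelihood ratio test (0.0562%) and 31 in DESeq2. The protease genes given in the closing section were called by the likelihood ratio test of the interaction but not by the quasi-likelihood test. No gene described here was therefore taken to change differently in males and females, and the lists were not tested for it.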

How the data were processed

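Per the labels and the study's methods, reads were trimmed and assembled de novo, the predicted coding sequences were clustered into genes by similarity, and the reads were aligned back to them. The authors deposited the resulting raw read counts per gene, with an annotation table. The submitters' processing notes name Trimmomatic 0.32 and BWA 0.6.1-r104. How mates, strand and reads on several genes were handled is not given in the sources used here. Annotation entries that had slipped by 1 column (14278 of 25943 genes) were put back under their headings. The authors' table of differential expression (fold changes and p-values) and the assembled sequences were not used here, and 2 libraries that the study left out for low coverage, 1 immature female and 1 mature male, were not analysed here.

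Tools were edgeR 4.0.16, DESeq2 1.42.0 and limma 3.58.1, run under R 4.3.3. Genes were kept by filterByExpr (minimum count 10) and scaled by TMM (factors 0.883 to 1.11). The quasi-likelihood test used 1 mean for each of 4 groups over all 10 libraries, so groups of 2 borrowed the spread of all groups (biological coefficient of variation 0.457). The threshold was a Benjamini-Hochberg adjusted p of 0.05. Male depth was 5014354, 5916540 and 8647455 reads in immature males 1 to 3 and 9960884 and 9620026 reads in mature males 2 and 3. Both mature libraries were thus deeper than every immature one, and 2 or 3 spiders per group limited the precision. Ratios of counts with few reads have 95% exact binomial intervals, which cover counting error only.

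There were 45 gene lists, matched on protein names, Drosophila symbols and Pfam domains. The members and lists were chosen with earlier results of these data known, and 8 lists (ribosome biogenesis, mitochondrial ribosomal proteins, transfer RNA loading enzymes, translation factors, viral matches, RNA interference, zona pellucida proteins and haem peroxidases) were added after values had been seen. The rule for names took every called gene, the 10 matched genes of lowest p in each direction among those with non-overlapping libraries (1 per contig), the 2 with the lowest p of each list, and all ecdysone receptors and early genes. The text gives a selection of these. Some further genes were picked with their values in view, mainly those called without immature male 2 and the hormone receptors. Of 75 genes followed through the alternatives, 25 overlap another gene on their contig, among them Gene001811 (Hr4), Gene001858 (Hr3), Gene001442 (E23), Gene007772 (Loxl2), Gene001529 (cysu), Gene006375 (MPP10) and Gene014889.

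The contrast was repeated with DESeq2, the likelihood ratio test, a replicate block, male libraries only, each library left out in turn, RLE size factors, counts thinned to 3481348 reads, and with a filter at a mean of 1 CPM or none. The newer dispersion estimate and 1 gene per contig were added after seeing the data. The tests were tested on simulated data with 200 changed genes.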

Additional observations from a re-analysis of the deposited data

Results flagged for a closer look

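For 5 protease genes the change with stage differed between the sexes in the likelihood ratio test of the interaction, though not in the quasi-likelihood test, where each had adjusted p = 1.00. The male difference exceeded the female one on the log2 scale by 9.53 for Gene025438 (SE 1.77, likelihood ratio test adjusted p = 0.0356) and by 9.48 for Gene013935 (SE 1.48, adjusted p = 1.58e-06). It did so by 11.18 for Gene013936 (SE 1.82, adjusted p = 4.64e-07), by 13.78 for Gene025662 (SE 2.28, adjusted p = 5.38e-05) and by 9.97 for Gene014889 (SE 2.40, adjusted p = 0.00725). The differences and adjusted p-values of these 5 genes come from the likelihood ratio fit. Each SE comes from the quasi-likelihood fit, where the difference for Gene013936 was 11.35. All 5 had nearly no reads in immature males, so these fitted sizes depend on the prior count and are no bounds.

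In 3 further genes every male library moved one way with stage and every female library the other. The male minus female difference was -6.45 for Gene001529 (cysu, likelihood ratio test adjusted p = 0.0950), 1.11 for Gene018956 (usp, adjusted p = 1.00) and -2.71 for Gene003328 (Lrt, adjusted p = 0.0750). Neither edgeR test called these differences between the sexes.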

How the results depend on the processing

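The 2 calls, both higher, stayed 2 with RLE size factors, without a filter, with a mean of at least 1 CPM and after thinning, and became 3 with the newer dispersion estimate. The likelihood ratio test gave 129 (88 higher, 41 lower) and DESeq2 255 (114 higher, 141 lower). With male libraries only there were 0, at an adjusted p under 0.05 in the quasi-likelihood test. A replicate block left 0 calls. Same-numbered males correlated in their deviations at 0.0942 and 0.131, with 2 pairs only, so the numbers were not taken as pairs. Leaving out 1 library gave 0 to 112 calls, 0 to 47 higher and 0 to 98 lower. The extremes were immature male 1 or 3 (0 each) and immature male 2 (112), followed by mature male 3 (48), and the last 2 sets shared 3 genes. The interaction had 0 calls, 14 by the likelihood ratio test, 31 by DESeq2 and 0 to 7 with 1 library left out. Of the 75 genes whose differences were recomputed, 0 changed direction under any alternative, 2 calls were lost under the block and with male libraries only, and 13 genes became calls without immature male 2. Another 17 genes are given by their CPM alone, and 9 of them had the opposite sign under at least 1 alternative. List medians moved by more than the SD over pairs of male libraries in 13 of 46 lists (all genes counted as 1) without immature male 2, in 15 without mature male 2 and in 8 without mature male 3, and the sign turned in 8, 13 and 4. The cause of these moves was not tested. The 2 and 3 spiders per group limit what could be detected.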

Other observations

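Mature male 2 held the RNA of a set of genes with matches to viral proteins, chosen after their values were seen. All 12 such genes with counts were highest in this library, between 4.37 and 381 CPM, while no other library exceeded 3.88 CPM for any of them. All 12 sequences came from the assembly of this library. Gene025485, matching the viral protein VP1, was at 0.591, 1 and 0.7 CPM in immature males and at 226 and 1.08 CPM in mature males 2 and 3. Gene025483 (VP3) was at 381 CPM in mature male 2 against 1.48 CPM in mature male 3, and Gene025479, matching a viral RNA polymerase, at 34.7 against 1.77 CPM.

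In the same library 8 of 20 RNA interference genes were at least 3 times above every other library. This list was also written after values had been seen, and the share of all tested genes passing that rule was not counted. Gene013847, matching an Argonaute protein, the core of the RNA silencing complex, was at 28.5, 23.2 and 21.9 CPM in immature males and at 270 and 22.1 CPM in mature males 2 and 3. Gene013019, matching Dcr-2, which cuts viral double-stranded RNA in Drosophila, was at 3.94, 6.35 and 4.67 CPM against 39.5 and 5.21 CPM. Gene013471, matching the immune factor Relish (Rel), was at 24.6, 34.7 and 24.5 CPM against 260 and 20.8 CPM. The values of mature male 3 lay near those of the immature males in each. These levels come from 1 spider.

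Some genes were high in a single male library. At least 10 times every other library were 47 genes in immature male 1, 45 in immature male 3, 27 in mature male 2, 5 in immature male 2 and 3 in mature male 3.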
